A study of Mus musculus with 69 samples.

Results

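F1 C57 × NOD bone marrow-derived macrophages (BMDMs) carry 1 set of chromosomes from each of the inbred strains C57 and NOD, and their RNA response to IL-4 is described here. The allele-specific RNA-seq table gave a C57 and an NOD value per gene and library. Both were summed within each library, and a gene was kept when the sum was above 0 in all 4 libraries. This held for 3991 of the 24527 listed genes (16.3%). There were 2 libraries of untreated (basal) cells and 2 of cells given 20 ng/ml mouse IL-4 for 24 hours, out of 69 samples in the series. By the study's methods the mice were adult females and the libraries biological replicates. The labels give no batch, and no source says whether the replicates of a group came from separate mice, so the p-values measure only the spread between these libraries. BMDMs of the parental strains, C57 and NOD, with 3 basal and 3 IL-4 libraries each, served as the reference, and a separate C57 time course gave a second C57 response at 24 hours. All of these cells were grown from bone marrow with M-CSF, and none carried an engineered allele.

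IL-4 binds a receptor that activates the transcription factor STAT6, and macrophages then switch on the alternatively activated program. This program is known for arginine metabolism through arginase 1, for lectin and scavenger receptors, and for a damped inflammatory response. In an F1 hybrid cell, the alleles of both parents share the same nucleus and therefore the same transcription factors and signals, while each allele keeps the DNA sequence around it.

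The F1 values are TPM, read numbers scaled for gene length and library size, that the authors had weighted by allele. Multiplied by gene length, every value was a whole multiple of a single step per column, and these units are called assigned reads here. A unit need not be 1 sequenced read, because the weighting may have changed the scale. By this measure the libraries held 690568 and 353711 assigned reads under basal conditions and 305411 and 351050 after IL-4. Of the 3284 genes with at least 20 TPM in the parents, 1815 (55.3%) were listed at 0 in every F1 library, so the table covers only part of the macrophage transcriptome. Genes at 0 throughout included Retnla, Chil3, Mrc1, Egr2 and Msx3, about whose F1 response the table says nothing. The kept genes had a median of 147 assigned reads over the 4 libraries. The Pearson r between replicates across the kept genes was 0.939 for basal and 0.893 for IL-4 libraries, against 0.879 to 0.920 between basal and IL-4 libraries. The IL-4 replicates were thus no more alike than libraries of different groups. Of the macrophage markers, 7 of 12 were kept, among them Csf1r (2320 and 2243 basal, 2056 and 1890 after IL-4), Spi1 and Lgals3, while Adgre1, Cd68, Itgam, Lyz2 and Aif1 were at 0 in all libraries. None of the dendritic cell, T and NK cell or B cell markers was kept. Of these, 1 of 6 dendritic cell and 2 of 8 T and NK cell markers were above 0 in some libraries. As macrophage markers were also listed at 0, a marker at 0 does not show that a cell type was absent.

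IL-4 induced 20 genes in the F1 cells and repressed 22, out of 3991 tested. A call required a change over 2-fold in log2(sum + 1) and an adjusted p under 0.05 by limma with Benjamini-Hochberg adjustment over all 3991 genes. The background shares were 0.501% induced and 0.551% repressed. In each of the 42 called genes the IL-4 libraries lay wholly above or wholly below the basal ones. Such a separation was seen upward in 15.1% and downward in 29.4% of all genes tested. The largest rises were those of Arg1, Pdia4, Slc7a2, Ablim1 and Tm4sf19.

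Arg1 (arginase 1, chr10:24915207-24927470, mm10) rose the most. Its summed TPM was 489 and 636 in the basal libraries and 18724 and 18528 after IL-4. The libraries of each group lay close together and far from the other group. The change was 5.06 ± 0.14 on the log2 scale (SE, 33.3-fold, limma adjusted p = 4.24e-07), and Arg1 transcripts made up 1.49% and 1.50% of the summed TPM after IL-4. Slc7a2 (chr8:40862367-40922070), which encodes a transporter that carries arginine into the cell, went from 441 and 550 to 3225 and 3367. Its groups did not overlap either, and the change was 2.74 ± 0.15 (6.68-fold, limma adjusted p = 1.02e-04).

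Pdia4, a protein disulfide isomerase of the endoplasmic reticulum, rose from 141 and 53.1 to 661 and 767, a change of 3.03 ± 0.42 (limma adjusted p = 0.0132). The basal libraries of Pdia4 differed by more than those of Arg1 or Slc7a2, but the IL-4 libraries were both higher. Ablim1, an actin-binding protein, rose from 58.0 and 49.8 to 390 and 336 (2.73 ± 0.32, limma adjusted p = 0.00627). Tm4sf19, a membrane protein, rose by 2.50, and Ier3, an immediate early response gene, rose by 2.33 on the log2 scale.

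Receptors formed a further part of the induced genes. Fcgr2b, the inhibitory receptor for IgG, had 476 and 406 under basal conditions and 1945 and 1375 after IL-4, a change of 1.89 ± 0.20 (limma adjusted p = 0.00405). The IL-4 libraries differed from each other but both stood well above the basal ones. Il6st, the shared signalling chain gp130 of the IL-6 family, rose by 1.88. Smaller changes were found for Il11ra1, the IL-11 receptor alpha chain (1.26), and Csf2rb, the common beta chain of the GM-CSF, IL-3 and IL-5 receptors (1.20). Of the integrin genes, Itgax (CD11c) rose by 1.18 and Itgb3 (the beta 3 chain) by 1.17. Sdc4 (syndecan 4, a cell surface proteoglycan) rose by 1.54 and H2-Eb1, a beta chain of MHC class II, by 1.41.

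Among intracellular enzymes, Dut, which clears dUTP and so keeps uracil out of DNA, rose from 503 and 754 to 2425 and 2473 (1.99 ± 0.19, limma adjusted p = 0.00267). Rnf19b, an E3 ubiquitin ligase, rose by 1.38. Further induced genes were Bex1 (1.65) and the secreted ribonucleases Rnase2a (1.45) and Rnase4 (1.06). The values of Rnase2a are uncertain because it belongs to a family of closely similar genes that can share reads, and Rnase4 overlaps a neighbouring ribonuclease gene.

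**Figure D1:**
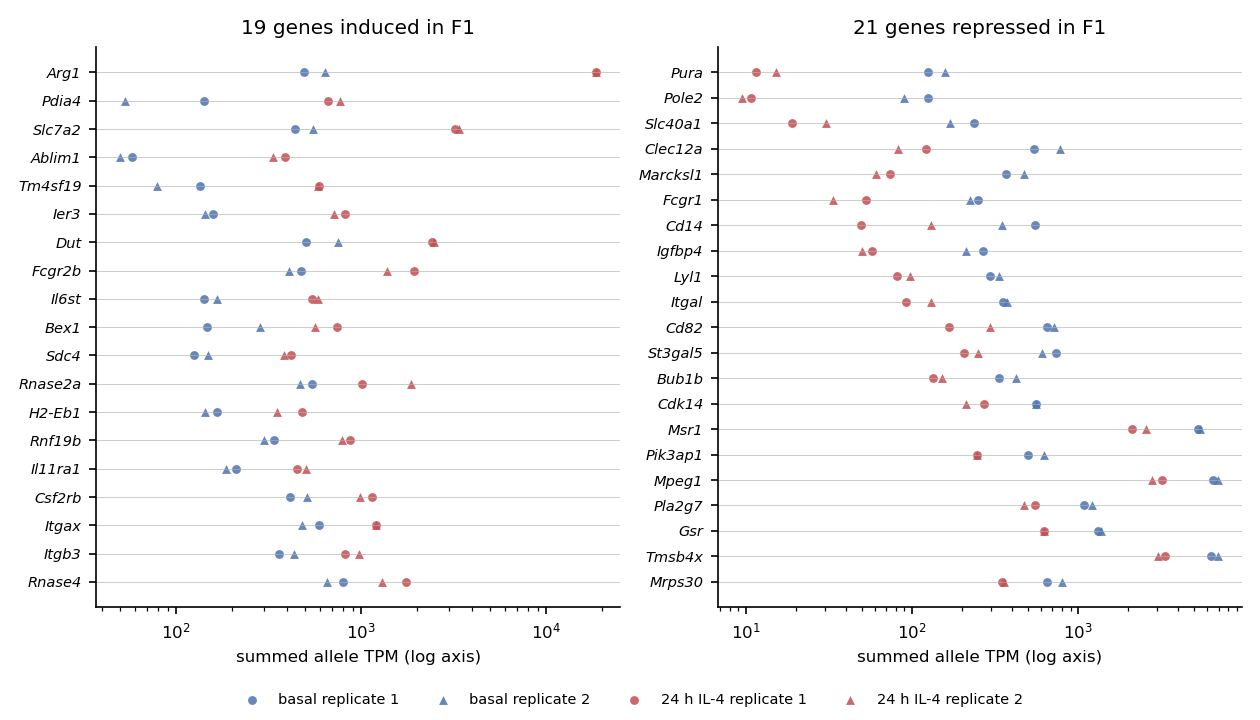
Summed TPM of both alleles (log axis) for 19 of the 20 induced and 21 of the 22 repressed genes, ordered by the size of the change, with 1 symbol per library. Blue symbols are the 2 basal and red symbols the 2 IL-4 libraries, and in every row the 2 colours do not overlap.

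The repressed genes included receptors of innate immunity and regulators of iron and lipid handling. Slc40a1 (ferroportin, the cellular iron exporter, chr1:45908070-45925594) fell from 236 and 170 to 18.9 and 30.5. Neither IL-4 library reached the basal levels, and the change was -3.01 ± 0.47 (limma adjusted p = 0.0220). Clec12a, an inhibitory C-type lectin receptor, went from 545 and 776 to 122 and 82.2 (-2.69 ± 0.30, limma adjusted p = 0.00530). Fcgr1, the high-affinity receptor for IgG, went from 250 and 225 to 52.9 and 33.3 (-2.47 ± 0.40, limma adjusted p = 0.0248). The inhibitory receptor gene Fcgr2b and this activating receptor gene thus moved in opposite directions in the same libraries.

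Cd14, the co-receptor for lipopolysaccharide, fell from 552 and 347 to 49.4 and 131 (-2.43 ± 0.46, limma adjusted p = 0.0452). Its libraries were widely spread within each group, and the adjusted p was 0.058 with median-ratio scaling, so this call depends on the scaling. Msr1, the class A scavenger receptor, had 5231 and 5402 under basal conditions and 2097 and 2574 after IL-4 (-1.19 ± 0.12, limma adjusted p = 0.00322). Mpeg1, which encodes the pore-forming protein perforin-2, had 6485 and 6962 and then 3204 and 2789 (-1.17 ± 0.11, limma adjusted p = 0.00258). In both of these abundant macrophage transcripts the replicates lay close together compared with the change.

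Further repressed genes encode signalling and adhesion proteins. Pik3ap1, an adaptor for PI3 kinase, fell by 1.18, and Itgal, the alpha chain of the integrin LFA-1, by 1.72. Marcksl1, an actin-regulating substrate of protein kinase C, fell by 2.62 and the tetraspanin gene Cd82 by 1.62. Enzymes in this group were St3gal5, the ganglioside GM3 synthase (-1.56), Pla2g7, which breaks down platelet-activating factor (-1.17), and Gsr, glutathione reductase (-1.11). Igfbp4 (-2.13), an IGF-binding protein, and Lyl1 (-1.81), a transcription factor, also fell. Others were Bub1b (-1.40), Cdk14 (-1.21), Tmsb4x (-1.06) and Mrps30 (-1.03). With median-ratio scaling the limma adjusted p was 0.073 for Pik3ap1, Bub1b and Cdk14 and 0.084 for Mrps30. Gsr and Tmsb4x changed by -0.97 and -0.91 under that scaling, less than 2-fold. These calls therefore depend on the scaling.

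Pura and Pole2 had the largest fitted falls, -3.31 and -3.26, but rest on few reads. Pura, a single-stranded DNA-binding protein, had 48 and 31 assigned reads under basal conditions against 2 and 3 after IL-4. Pole2, a subunit of DNA polymerase epsilon, had 50 and 18 against 2 and 2. The ratio of IL-4 to basal per assigned read was 0.101 for Pura (exact 95% interval 0.0318 to 0.245) and 0.0936 for Pole2 (0.0248 to 0.251). These intervals cover counting error only and treat each unit as 1 read.

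The number of calls depended on the fit. Without the mean-variance trend in limma, 0 genes were called, with 404 at an unadjusted p under 0.05, while limma-voom on the assigned reads called 38 induced and 52 repressed genes, which included all 20 induced and 20 of the 22 repressed ones. With an IL-4 or basal library left out, the counts of induced and repressed genes were 11 and 5 (without basal replicate 1), 11 and 3 (without basal replicate 2), 7 and 8 (without IL-4 replicate 1) and 14 and 45 (without IL-4 replicate 2). In these fits the lone library was assumed to vary like the other group. Arg1, Slc7a2, Ier3, Dut and Fcgr2b stayed called among the induced genes whichever library was left out, and Clec12a, Msr1 and Mpeg1 among the repressed ones. The median change over all genes tested was -0.16 in log2. It was -0.01 with median-ratio scaling, which called 30 induced and 15 repressed genes, so the induced share of the calls went from 47.6% to 66.7%.

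**Figure D2:**
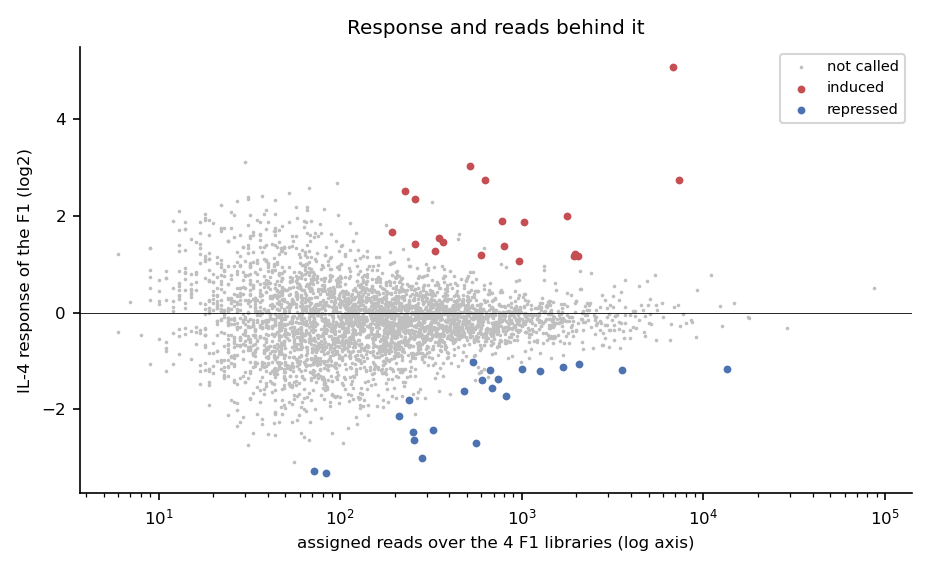
IL-4 response of each of the 3991 F1 genes (log2) against its assigned reads over the 4 libraries (log axis), with induced genes in red and repressed genes in blue. Responses fan out at low reads, where no gene under 40 assigned reads was called, and the called genes with the smallest changes lie toward the right.

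The depth of a gene bore on what could be called. No gene was called among the 539 with under 40 assigned reads, where the median SE of the response was 0.78. Among the 896 genes with at least 400 assigned reads, 27 were called and the median SE was 0.22. A gene without a call in the F1 cells may therefore still have changed.

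The comparison with the parents asks whose response the F1 cells shared. The F1 induced genes were mostly genes that rose in C57, and many of them rose little in NOD. Of the 20 induced genes, 17 were called induced in the C57 parents, where 2.3% of the 3820 genes tested in both tables were called, and 8 in the NOD parents, where the share was 0.681%. The median response of these 20 genes was 1.60 in F1, 1.83 in C57 and 0.57 in NOD. As the F1 and parental tables were scaled separately, the responses are set side by side and their difference was not tested. The 20 genes were chosen by their F1 rise, which favours a larger rise in F1.

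Genes called in F1 and in both parents included Arg1, Pdia4, Dut, Il6st, Itgax, Itgb3 and Rnf19b. Dut changed less in F1 (1.99) than in C57 (4.28) or NOD (4.04), and Itgax likewise changed by 1.18 in F1, 2.79 in C57 and 1.68 in NOD. Rnf19b also showed a smaller F1 value (1.38) than either parent (2.08 and 2.18). Tm4sf19, H2-Eb1 and Rnase4 were called in F1 and in neither parent of the 5-strain table. Tm4sf19 changed by 0.78 in C57, 0.41 in NOD and 2.50 in F1, and it was called in the C57 time course (1.88). There H2-Eb1 was at 0.05 and Rnase4 at -0.41. The time course called 16 of the 20 F1 induced genes, against 2.88% of the F1 genes tested in it.

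Of the 22 repressed genes, 15 were called in neither parent, and 7 of these 15 were called repressed in the C57 time course. Of the 22, the C57 parents had 7 called repressed (background 0.89%) and the NOD parents had 1, Marcksl1 (background 0.105%). The time course called 13 of the 22 (background 2.31%). The median response was -1.59 in F1, -0.68 in C57, -0.02 in NOD and -1.15 in the C57 time course. The 22 genes were chosen by their F1 fall, which favours a larger fall in F1 than in the parents or time course. As a description only, the fall was larger in F1 than in both parents for 20 of the 22 genes. For 18 it was also larger than in the time course. Clec12a, for example, changed by -0.72 in C57 and 0.24 in NOD, Fcgr1 by -0.30 and 0.43, and Cd14 by -0.41 and -0.33. In the C57 time course these genes changed by -1.65, -2.11 and -2.13, so the C57 responses themselves differed between the tables. The difference between those tables was not tested. Pura and Pole2 changed by 0.12 or less in either parent, and by 0.09 and -0.06 in the time course. Tmsb4x, which encodes the actin-binding thymosin beta 4, changed by -1.06 in F1, -0.93 in C57 and -0.87 in NOD.

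**Figure D3:**
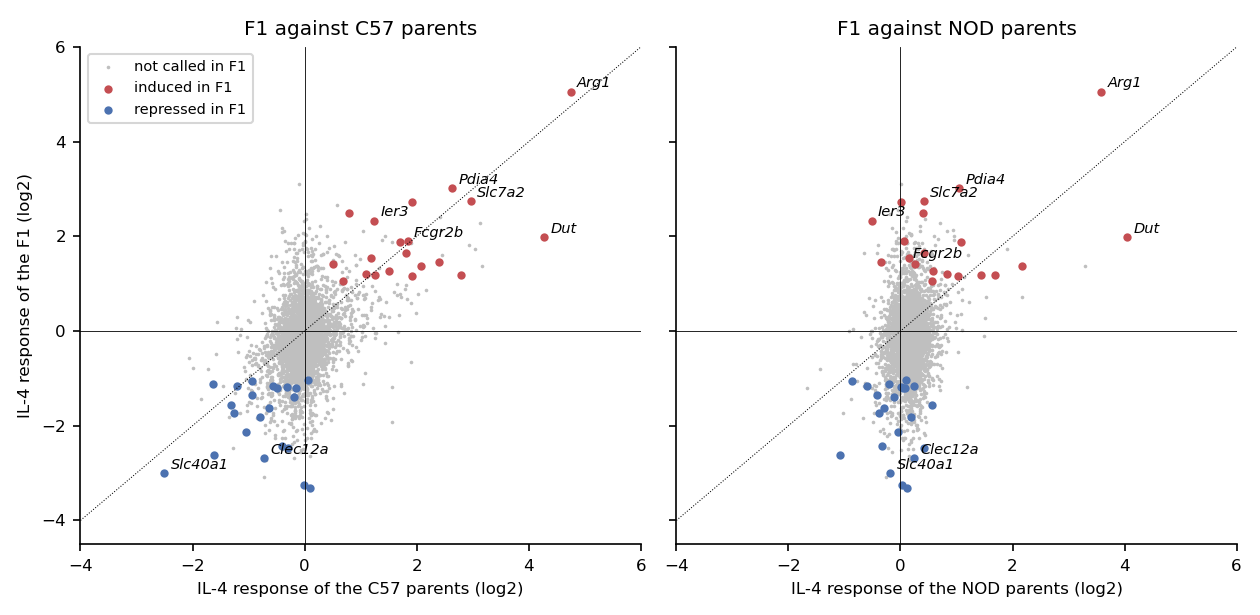
IL-4 response of the F1 cells (log2, y axis) against that of the C57 parents (left) and the NOD parents (right), with 1 point per gene tested in both tables and a dotted line of equal response. Most induced genes (red) lie near the dotted line against C57 and to the left of it, near a response of 0, against NOD.

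The parental calls, which share no library with the F1 cells, were then followed into F1. Of the 271 genes induced in the C57 parents (2.28% of those tested there), 88 (32.5%) were kept in F1, and 74 of these 88 (84.1%) had an F1 response above 0, against 37.9% of all F1 genes. Their median response was 0.76 in F1, 1.44 in C57 and 0.60 in NOD. In F1, 17 of the 88 were called induced (19.3%) and none repressed. Of the 182 genes repressed in C57 (1.53%), 34 were kept and 30 of them (88.2%) had an F1 response below 0, with a median of -1.06 in F1, -1.21 in C57 and -0.33 in NOD. The C57 time course, a separate table, called 2.85% of its genes induced and 2.91% repressed. The 111 induced genes kept in F1 had a median F1 response of 0.67 and the 89 repressed genes one of -0.87. Of the genes induced in the NOD parents (0.731%), 26 were kept, and their F1 median was 1.02. Of these 26, 23 were also called induced in the C57 parents, with an F1 median of 1.15. The 3 called only in NOD had an F1 median of 0.03.

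Across the 3801 genes tested in all 3 tables, the Pearson r of the F1 response was 0.36 with the C57 parents, 0.21 with the NOD parents and 0.35 with the C57 time course. The r between the F1 responses of replicate 1 and replicate 2 was 0.16 over the same genes, so spread between F1 libraries limits all of these values. The genes are not independent replicates, and no test was made.

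Genes whose response differed between the parents were then followed into the F1 cells. Limma called this difference past 2-fold for 72 of the 3820 genes tested in both tables (1.88%), with the smaller response in NOD for 43 genes (1.13%) and the larger in NOD for 29 (0.759%). The parental values chose these genes and are given as a description. A position was computed for each gene that is 0 when the F1 response equals that of NOD and 1 when it equals that of C57. The median position was 0.62, and 40 of the 72 genes lay nearer to C57. Of the 72, 14 were also called in F1, against 1.05% of all F1 genes.

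For the 43 genes with the smaller response in NOD, the median response was 1.81 in C57, 0.78 in F1 and 0.25 in NOD, a median position of 0.38. This position was 0.56 when the C57 response was taken from the time course, 0.12 with a pseudocount of 0.1, 0.25 without basal replicate 1 and 0.55 without basal replicate 2. The genes were widely spread, with 26 between the parents, 7 beyond C57 and 10 beyond NOD. For the 29 genes with the larger response in NOD, the median was -0.94 in C57, -0.76 in F1 and 0.29 in NOD, a median position of 0.82. Here 21 of 29 lay nearer to C57. Whether the 2 classes differ in position was not tested.

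The alleles could be read separately for 58 of these 72 genes. In the 37 genes with the smaller response in NOD, the median was 1.81 in the C57 parents, 0.80 for the C57 allele in F1, 0.76 for the NOD allele in F1 and 0.25 in the NOD parents. In 28 of the 37, the log2 response of the NOD allele in F1 was above that of the same gene in the NOD parents, while 10 of the 43 genes were called in F1. In the 21 genes with the larger response in NOD, the medians were -0.93, -1.15, -0.86 and 0.30 in the same order. In 20 of the 21, the response of the NOD allele was below that of the NOD parents, and 4 of the 29 genes were called in F1. At the median, the alleles within F1 lay closer to each other than the parents did in both classes. The genes were chosen for a difference between the parents, which favours this pattern and the counts against the NOD parents. Over all F1 genes the median response was -0.16 for the NOD allele and 0.15 in the NOD parents. This offset also favours the count of 20 of 21. A pseudocount of 1 weighs less on the F1 values than on parental TPM, which can affect both counts. The pattern and the counts are given as a description.

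**Figure D4:**
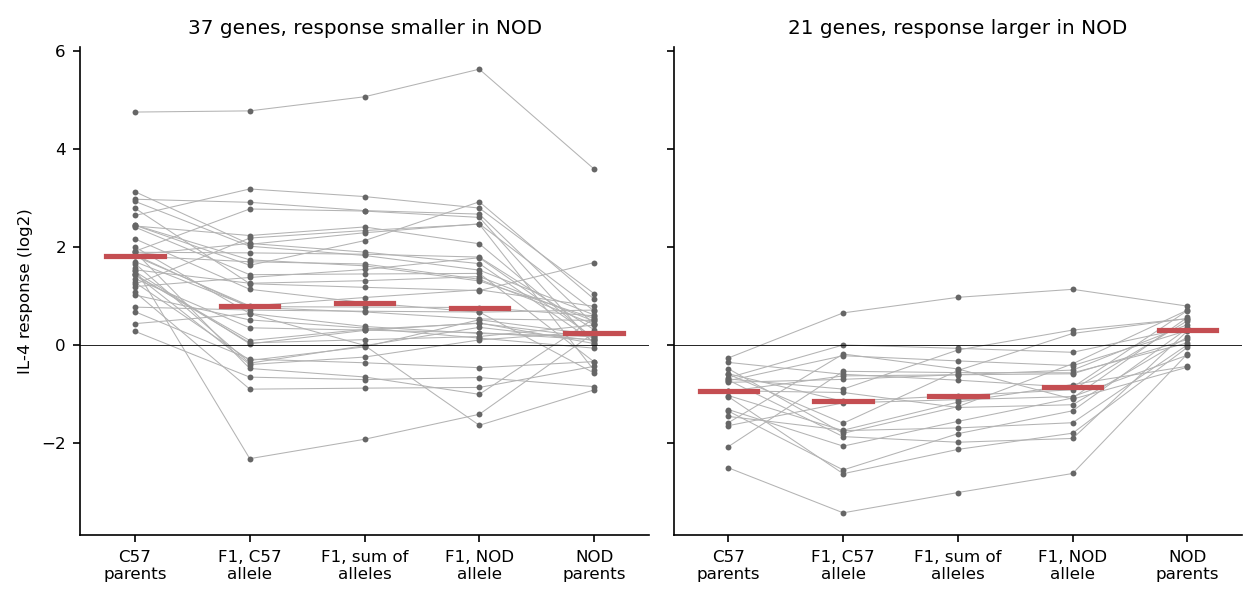
IL-4 response (log2) of the genes with a parental difference past 2-fold and both alleles above 0, with 1 grey line per gene and red bars for the median. From left to right each panel gives the C57 parents, the C57 allele, the summed alleles and the NOD allele in F1, and the NOD parents. The medians of the alleles lie together, at 0.80 and 0.76 in the left panel and at -1.15 and -0.86 in the right one.

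Slc7a2 shows the pattern in detail. In the C57 parents it rose from 16.4 ± 0.632 to 136 ± 12.7 TPM (SD, n = 3), while in the NOD parents it was already at 106 ± 2.94 TPM under basal conditions and reached 141 ± 7.09 after IL-4. The responses were 2.97 and 0.42 in log2, and the interaction was -2.55 ± 0.10 (limma adjusted p = 2.99e-15). In the F1 cells, the C57 allele had 129 and 142 under basal conditions and 991 and 1052 after IL-4. The NOD allele had 312 and 408 and then 2234 and 2315. The NOD allele was thus the higher one in all 4 libraries, and both alleles rose, by 2.91 and 2.67 in log2. Their responses differed by 0.24 ± 0.13 (SE), which was not called (limma adjusted p = 0.81).

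Arg1 differed between the parents in level as well as in response. It was at 126 ± 10.1 TPM in basal C57 and 3411 ± 86.0 after IL-4, against 5.59 ± 2.32 and 74.6 ± 5.54 in NOD (SD, n = 3). The C57 allele in F1 had 344 and 476 under basal conditions and 10993 and 11180 after IL-4, and the NOD allele had 145 and 160 and then 7731 and 7348. The C57 allele was the higher one in each library. The NOD allele rose by 5.62 and the C57 allele by 4.77, a difference of -0.85 ± 0.14 for C57 minus NOD that did not pass the adjustment over all genes (limma adjusted p = 0.75).

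Fcgr2b changed in the C57 parents by 1.84 and in the NOD parents by 0.06, with an interaction of -1.78 ± 0.08 (limma adjusted p = 9.02e-14). Within F1 its C57 allele rose by 2.07 and its NOD allele by 1.66. Ier3 rose by 1.24 in C57 and fell by 0.52 in NOD, and its F1 alleles rose by 2.18 (C57) and 2.46 (NOD). For Rnase2a the parents stood at 2.40 and -0.34 and the alleles at 1.43 and 1.46, with the limit on similar genes named above. Its level was 1.99 TPM in basal C57 and 0.840 and 0.385 TPM before and after IL-4 in NOD. Its parental responses therefore depend on the pseudocount. Ablim1 was low in both parents, with 0.408 and 4.25 TPM before and after IL-4 in C57 and 0.0300 and 0.0397 TPM in NOD, so its NOD response of 0.01 says little. Its NOD allele in F1 went from 25.1 and 18.5 to 131 and 141, values that cannot be set against parental TPM.

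Among the repressed genes, Slc40a1 changed by -2.50 in the C57 parents and by -0.18 in the NOD parents, where its basal level was low (3.98 ± 0.217 TPM against 15.7 ± 1.32 in C57). In F1 its C57 allele changed by -3.42 and its NOD allele by -2.62, from basal values of 111 and 92.9 and of 125 and 77.2. St3gal5 fell by 1.32 in C57 and rose by 0.56 in NOD, and its F1 alleles changed by -2.06 (C57) and -1.08 (NOD). Gsr changed by -1.64 in C57 and -0.21 in NOD, and by -1.18 and -1.05 for its F1 alleles.

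**Figure D5:**
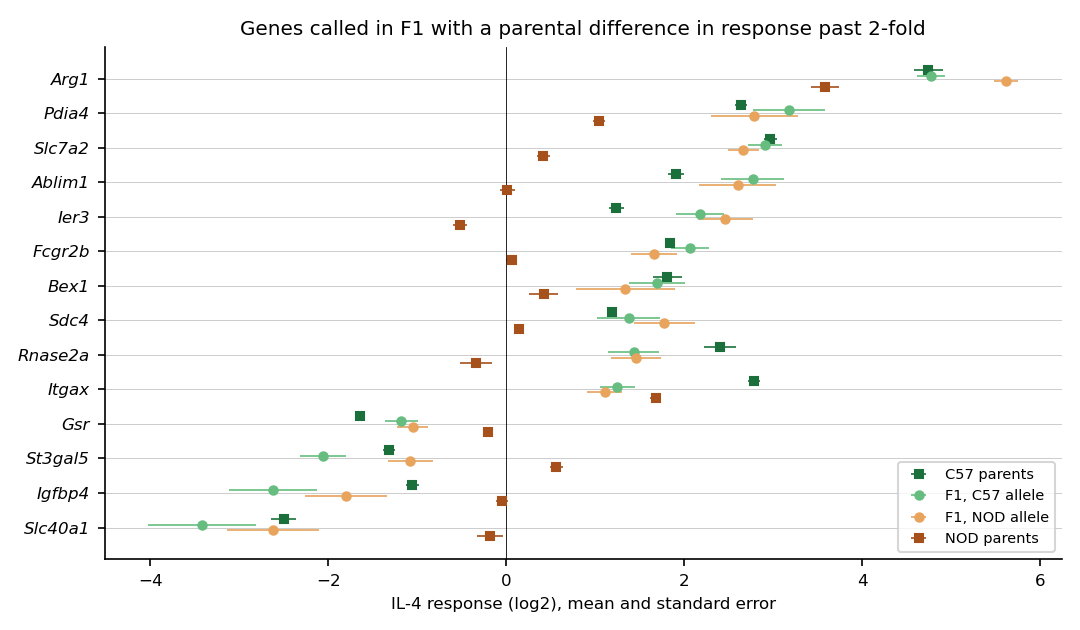
IL-4 response (log2, mean with standard error bars) of the 14 genes called in F1 with a parental difference past 2-fold. Squares are the C57 (dark green) and NOD (brown) parents and circles are the C57 (light green) and NOD (orange) alleles in F1 cells. The orange circles lie to the right of the brown squares for 9 of the 10 induced genes, with Itgax as the exception, and to the left of them for all 4 repressed genes. The genes were chosen by their F1 call and their parental difference, which favours this order.

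The remaining genes with the largest parental differences were not called in F1. Cdh1 (E-cadherin) had 35.5 and 48.3 under basal conditions and 121 and 351 after IL-4, a change of 2.29 ± 0.54 (limma adjusted p = 0.12) with parental responses of 3.12 and 0.70. The VEGF receptor gene Flt1 changed by 1.82, with 2.93 and 0.61 in the parents. Both genes were under 1 TPM in the basal parents, where the pseudocount lowers a log2 response. The ratios of the mean values were 59.1 in C57, 13.5 in NOD and 5.63 in F1 for Cdh1, and 45.8, 14.7 and 3.98 for Flt1. On this scale the F1 ratio lay below both parents for these genes, but the parental ratios divide by values near 0. The basal NOD level was 0.054 ± 0.039 TPM for Cdh1 and 0.041 ± 0.036 TPM for Flt1 (SD, n = 3). The NOD ratios are therefore uncertain, and the order of F1 and NOD is not settled for these genes. Ksr2, a scaffold of the MAP kinase pathway, had 5 and 2 assigned reads before and 12 and 18 after IL-4, a ratio of 6.82 (exact 95% interval 2.93 to 18.4). Acss2, an acetyl-CoA synthetase, changed by -0.56 in F1, -2.07 in C57 and 0.04 in NOD. Abcb4, a phospholipid transporter, changed by -1.81 in F1, -1.35 in C57 and 0.34 in NOD. The noncoding RNA Malat1 changed by -0.44 ± 0.76 and turned positive without IL-4 replicate 1.

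A direct test of whether the alleles of a gene responded differently called 0 of 3231 genes with limma (background 0.0%), and 213 genes (6.59%) had an unadjusted p under 0.05. No other tool was run for this test. The median SE of the difference was 0.36 and the lowest adjusted p was 0.75, so differences of moderate size may have gone undetected. The responses of the C57 and NOD alleles correlated at r = 0.56 across these genes, which share library and depth within each pair.

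Gene groups from fixed lists were read against the background of 0.501% induced and 0.551% repressed. Over all F1 genes tested in the parents, the median response was -0.03 in C57 and 0.15 in NOD. Of 40 IL-4 marker genes of alternative activation, 10 were kept and 25 were at 0 in all F1 libraries. Arg1 and Slc7a2 were called induced, and 8 of the 10 had a response above 0, against 37.9% of all F1 genes. The median was 1.61 against -0.16 over all genes, with 1.93 for the same genes in C57 and 0.51 in NOD. Clec7a (Dectin-1, a receptor for fungal glucans) had 40.5 and 54.5 before and 133 and 116 after IL-4, which did not pass (1.38 ± 0.43, limma adjusted p = 0.23), although it was at 3.17 in C57 and 3.30 in NOD. Cd300ld, with 2120 and 2294 before and 2622 and 2627 after IL-4, changed by 0.25, Plk2 by -0.32 and Slc7a8 by -0.06. Dcstamp and Ear2 had only 2 to 15 and 1 to 5 assigned reads per library, and neither was called (limma adjusted p = 0.32 and 0.59). The ratio of IL-4 to basal per assigned read was 5.30 for Dcstamp (exact 95% interval 2.05 to 16.1) and 2.55 for Ear2 (0.734 to 9.89). These intervals leave out the spread between libraries.

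Of 44 inflammatory and acute-phase genes, 7 were kept, and Cd14 and Msr1 were called repressed. All 7 had a response below 0, against 62.1% of all F1 genes, with a median of -1.34. The medians for the same genes were -0.15 in C57 and 0.23 in NOD. Of the called genes, Cd14 changed by -0.41 in the C57 parents and -2.13 in the C57 time course, and Msr1 by -0.15 and -0.53. Of 50 interferon-stimulated genes, 12 were kept and none was called, with a median of -1.09 against -0.28 in C57 and 0.16 in NOD. The NOD value lay at the median of all genes there (0.15). In the cell cycle and DNA replication list, 20 of 35 genes were kept. Bub1b, a kinase of the mitotic checkpoint, was called repressed. A response above 0 was seen in 1 gene of 20, against 37.9% of all F1 genes, and the median was -0.44. This median was -0.30 with median-ratio scaling, under which Bub1b was no longer called (limma adjusted p = 0.073).

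In the MHC class II list, 10 of 14 genes were kept, H2-Eb1 was called induced, and the median was 0.27. The summed level of the list was 26221.9 to 26250.1 under basal conditions and 26107.7 to 26943.9 after IL-4. In the list of MiT/TFE, fusion and osteoclast-like genes, 11 of 22 were kept, Itgax was called, and the median was 0.17. No kept gene was called among lysosomal genes (11 of 30 kept), cholesterol and fatty acid synthesis (11 of 28), fatty acid uptake and oxidation (5 of 21), glycolysis and HIF targets (8 of 24), transcription factors of the IL-4 response (15 of 38) or IL-4 receptor and STAT6 signalling (5 of 20). Il4ra and Stat6 themselves were at 0 in all F1 libraries. Their medians ranged from -0.75, for the synthesis genes, to 0.18, for receptor signalling.

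Among the macrophage markers, Fcgr1 and Cd14 were called repressed, as given above. The summed level of the 7 kept markers was 95546.4 to 96393.8 under basal conditions and 133349 to 134604 after IL-4, mostly from Lgals3 (galectin-3), which alone made up 7.17% to 7.24% of the summed TPM before and 10.3% to 10.4% after IL-4. Lgals3 changed by 0.51 ± 0.04, under the fold required for a call. Of the neutrophil markers, Mpo and Csf3r were kept and neither was called. The summed level of these markers was 181 to 213 under basal conditions and 211 to 265 after IL-4. The lists of mast cell, basophil and eosinophil markers and of fibroblast markers kept 1 gene each, Mcpt8 and Pdgfrb, also not called. The part of other cells in the results was not tested.

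Promoter sequence is shown for induced genes because STAT6 binds a known palindrome, TTCNNNNGAA, read the same on both strands. RefSeq windows (GRCm38.p6, 250 bases before to 50 after the gene start) matched 15 of the 20 induced genes, and 2 of them, Itgax and Ablim1, hold the motif. None of the 15 matched repressed genes holds it. Over all 27025 genes in the table, 8.01% hold it, and among the 3137 matched F1 genes 6.34%. A match is a description of letters, not of binding. Below are the 250 bases before the start of Itgax (chr7:128129300-128129549, plus strand) and of 1 of 5 Ablim1 starts (chr19:57197632-57197881, minus strand), the windows of these genes that hold a match, with the motif in capitals.
Itgax: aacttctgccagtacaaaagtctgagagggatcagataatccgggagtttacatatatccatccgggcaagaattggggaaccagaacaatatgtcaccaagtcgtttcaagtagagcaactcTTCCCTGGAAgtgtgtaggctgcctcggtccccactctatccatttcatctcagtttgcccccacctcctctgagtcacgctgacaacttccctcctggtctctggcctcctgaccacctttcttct
Ablim1: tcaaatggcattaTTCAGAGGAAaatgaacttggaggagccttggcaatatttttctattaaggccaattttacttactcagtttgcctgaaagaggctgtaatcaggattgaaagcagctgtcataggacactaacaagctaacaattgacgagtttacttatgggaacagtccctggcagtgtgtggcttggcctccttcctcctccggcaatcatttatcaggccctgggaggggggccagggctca
The motif starts 127 bases before the gene start in Itgax and 237 bases before it in Ablim1. This Ablim1 start lies outside the interval listed for the gene with the F1 values (chr19:57033264-57119024).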

How the data were processed

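RNA-seq of F1 C57 × NOD BMDMs and of their parental strains was analysed from the authors' processed tables. The authors mapped reads with STAR, shifted positions to mm10, and computed TPM with HOMER 4.11.1. The deposited F1 TPM values were weighted by the share of reads over strain variants and hold 1 column per allele, each scaled on its own. The methods describe this weighting for F1 mice in general and remove transcripts without assigned reads in an allele. The parental table also holds the authors' fold changes and p-values, which were not used. Multiplying F1 TPM by gene length gave whole multiples of a step within 0.05 for 100% of values, from which assigned reads were taken.

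The C57 and NOD values were summed per library, and log2(sum + 1) of genes above 0 in all 4 libraries was tested with limma 3.58.1 in R 4.3.3 (empirical Bayes with trend, Benjamini-Hochberg). The parents were tested on log2(TPM + 1) in 1 model of the 29 libraries of 5 strains, for the 11907 genes that reached 1 TPM in 2 or more of them, with an interaction contrast for NOD minus C57. The C57 time course was fitted in its own model of 16 libraries. Allele responses were compared within libraries. The call was a fold over 2 with an adjusted p under 0.05. In basal cells the F1 sums were at a median of 8.11 times the parental TPM over 3642 genes. A pseudocount of 1 therefore weighs less on the F1 values. Apart from this scale, levels were not compared across tables. The procedure was tested on simulated data.

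Genes named are the 10 largest called rises and falls with separated libraries, the 5 largest parental differences in each direction, the IL-4 markers kept in F1, and called members of lists. Most other called genes, and Csf1r, Spi1, Lgals3, Mpo, Csf3r, Mcpt8, Pdgfrb, Rbp4 and Matn2, were named after values were seen. The genes, lists and tests were chosen with earlier results of these data known. Alternatives were other pseudocounts, filters, scalings, fits and left-out libraries, and after seeing the data limma-voom on assigned reads, a minimum of 40 assigned reads and F1 sums scaled to the parental TPM. Some results on single genes are not reported here. Figures were drawn with matplotlib 3.10.9.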

Additional observations from a re-analysis of the deposited data

Results flagged for a closer look

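The response to IL-4 differed between the parents past 2-fold, by the interaction test in limma, for 72 genes kept in the F1 cells. The NOD minus C57 difference in log2 was -2.75 for Rnase2a, -2.55 for Slc7a2, -2.43 for Cdh1, -2.31 for Flt1 and -2.31 for Ksr2. In the other direction it was 2.32 for Slc40a1, 2.11 for Acss2, 1.88 for St3gal5, 1.68 for Abcb4 and 1.51 for Malat1.

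Outside the genes tested, 25 genes were at 0 in both basal F1 libraries and above 0 in both IL-4 libraries, against 238 with the reverse pattern. The assigned reads of the former over both IL-4 libraries were highest for Il31ra (29), a receptor chain of the cytokine IL-31, followed by Chchd3 (22) and Ccdc80 (16). For Il31ra they were 23 and 6 reads. The median over the 25 genes was 9 reads, and basal replicate 1 had the most assigned reads of the 4 libraries (690568 against 305411 to 353711). No fold is given for these genes.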

How the results depend on the processing

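The F1 counts of 20 induced and 22 repressed genes stayed within 1.5 times under other pseudocounts, median-ratio scaling, quantile normalization, genes with both alleles above 0, at least 40 assigned reads and F1 sums scaled to the parental TPM. They were 2 and 0 without the filter and with a mean sum of at least 1, where genes at 0 in some library enter, and 0 and 0 without the trend. The C57 allele alone gave 16 and 9, the NOD allele alone 7 and 6, and limma-voom 38 and 52. With 1 library left out the counts ranged from 7 to 14 induced and from 3 to 45 repressed. The same replicate numbers did not mark paired libraries (r = -0.026 between same-numbered deviations), and with a replicate block the counts were 38 and 61. The allele test called 0 genes under every alternative run. Genes that were not called and changed sign were Malat1 (-0.94 to 0.061 with 1 library left out), Ear2 (-0.0052 to 2.79 with 1 library left out) and Slc7a8 (0.082 with median-ratio scaling, 0.040 with the NOD allele alone and 0.0017 with limma-voom). No called gene changed sign. The cause of these changes was not tested.

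For the parents, pseudocounts of 0.1 and 5 gave 412 and 160 induced and 350 and 80 repressed genes in C57 (271 and 182 with 1), 225 and 28 induced and 121 and 29 repressed in NOD (87 and 55), and 358 and 45 larger and 263 and 104 smaller responses in NOD (124 and 170). Median-ratio scaling gave 88 repressed genes in NOD and 66 larger responses in NOD. The time course had 216 induced and 169 repressed genes with a pseudocount of 5 and 585 repressed with 0.1 (344 and 352). The median position was 0.49 over all genes with median-ratio scaling (0.62), and for responses smaller in NOD (0.38) it was 0.12 with a pseudocount of 0.1, 0.56 with the time course as the C57 reference and 0.25 to 0.55 with 1 F1 library left out.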

Other observations

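Rbp4, which encodes the retinol carrier of plasma, was outside the tested genes because 1 basal library lists it at 0. Its summed TPM was 76.4 and 0 under basal conditions and 1258 and 1598 after IL-4, with 17 and 0 assigned reads before and 128 and 186 after. Matn2, a matrix protein on the IL-4 marker list, had 22.4 and 23.5 under basal conditions and was listed at 0 in both IL-4 libraries, with 19 and 10 assigned reads before. Both were chosen after their values were seen.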
